A study of Mus musculus with 6 samples.

Results

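The Klra genes encode the Ly49 receptors of mouse natural killer (NK) cells and of related innate lymphocytes. The 10 genes described here were taken by symbol from the deposited expression table: Klra1, Klra3, Klra4, Klra5, Klra6, Klra7, Klra8, Klra9, Klra10 and Klra17. All 10 were found among the 24628 genes of the table, and 4 other rows carried the same stem (Klra2, Klra11-ps, Klra13-ps and Klra14-ps). RNA-seq was done on 6 mouse lymphocyte libraries, which the series text calls ILC1s, innate lymphocytes that make interferon-γ. The 3 conditional knockout (cKO) libraries are titled treatment and their columns join the names Ncr1 and Rora, while the 3 floxed libraries carry Rora fl/fl alleles (Rora encodes the nuclear receptor RORα). The cKO group was assigned by elimination, since the series text names a wild-type and a cKO group only. The series title names a lymph node to liver axis, and the deposited values carry LN-ILC1 in their name. The sample labels do not give the Cre line, the deleted exons, the tissue, the sort gate, or the age, sex and number of mice. Nor do they say whether libraries of a group are separate animals, so every p-value below measures a spread between libraries that may be technical.

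Ly49 receptors are type II membrane proteins with a C-type lectin-like domain, encoded side by side in the NK gene complex, and most of them bind MHC class I molecules. Inhibitory members carry an ITIM in the cytoplasmic tail that recruits the phosphatase SHP-1, whereas activating members lack it and signal through the ITAM of the adaptor DAP12. Each NK cell expresses only some of the genes, so that a population is a mosaic of receptor combinations, and conventional NK cells generally carry more Ly49 receptors than ILC1s. In bulk RNA, more cells that express a receptor and more RNA per cell cannot be told apart.

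All 10 genes lie on the minus strand of chromosome 6 within 556 kb in mm10 (129831154 to 130386874), in the order Klra17, Klra5, Klra6, Klra4, Klra8, Klra9, Klra7, Klra10, Klra3 and Klra1 along the plus strand. Their starts and ends in the table were those of GENCODE M21, and none shared exon bases with another gene of the table. Windows from 250 bases before to 50 bases after the annotated starts were taken from RefSeq (GRCm38.p6, the assembly of mm10). All 10 genes matched, with 12 windows in all because Klra7 and Klra8 have a pair of starts each. A block of sequence recurred in the windows of 8 members and is shown because these genes were read together below. The capitals mark the longest run, 15 bases, shared by 7 of them.

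Klra9: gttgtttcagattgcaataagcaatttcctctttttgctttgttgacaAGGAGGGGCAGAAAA
Klra3: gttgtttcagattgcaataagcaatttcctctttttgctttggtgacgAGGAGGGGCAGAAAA
Klra6: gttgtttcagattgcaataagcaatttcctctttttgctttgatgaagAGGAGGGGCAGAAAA
Klra5: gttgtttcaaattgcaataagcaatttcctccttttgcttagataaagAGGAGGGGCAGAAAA
Klra7: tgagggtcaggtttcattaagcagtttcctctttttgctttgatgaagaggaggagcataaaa
Klra4: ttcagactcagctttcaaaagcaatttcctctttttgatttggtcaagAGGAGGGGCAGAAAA
Klra8: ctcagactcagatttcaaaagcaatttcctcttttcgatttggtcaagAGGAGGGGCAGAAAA
Klra17: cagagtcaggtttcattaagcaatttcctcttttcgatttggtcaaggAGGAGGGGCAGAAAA

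These stretches of 63 bases read 5′ to 3′ on the minus strand. They lie on chromosome 6 at 130193112 to 130193174 (Klra9), 130337607 to 130337669 (Klra3), 130027035 to 130027097 (Klra6), 129913276 to 129913338 (Klra5), 130233373 to 130233435 (Klra7), 130067312 to 130067374 (Klra4), 130129940 to 130130002 (Klra8) and 129876707 to 129876769 (Klra17). Set against Klra9 without gaps, 61 of 63 bases matched in Klra3, 60 in Klra6, 56 in Klra5, 49 in Klra7, 43 in Klra4, 42 in Klra8 and 32 in Klra17. Klra17 has an extra g just before the run, so its upstream bases stand out of step. Its count therefore does not measure how far it diverged. From the last base of the block to an annotated start, the distance ran from 34 (Klra17) to 104 bases (Klra8), outside Klra9 and Klra3. It was -1 in Klra9 and -20 in Klra3, whose blocks thus reached past the start. The 15-base run was held by 8 of 32851 annotated promoter windows (0.0244%), and all 8 belonged to these 7 Klra genes. It did not occur in the windows given for Klra10 and Klra1, which only says that these letters are absent there. A ROR half-site, AGGTCA on either strand, stood in the window of Klra10 alone, against 16.3% of all windows. The AP-1 motif TGANTCA was in the windows of 0 of 10 members (7.81% of all), the RUNX motif TGTGGT in that of Klra1 (16.8% of all), and the TCF motif CTTTGA in those of Klra6 and Klra7 (16.0% of all). Each motif was searched on both strands of the 300-base windows.

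Depth was 21111333 to 22440170 reads assigned to genes in cKO libraries and 20152146 to 21711523 in floxed libraries. Each log2 difference is the cKO mean less the floxed mean of log2(RPKM + 1), where RPKM scales reads to gene length and depth. A gene counted as changed when its limma p, adjusted after Benjamini and Hochberg over the 12731 genes tested, was under 0.05. Rora was at 5.69, 6.29 and 6.24 RPKM in cKO libraries, against 6.92, 7.41 and 7.91 RPKM in floxed libraries, and did not pass (log2 difference -0.25, adjusted p = 0.242). All cKO values of Rora nevertheless lay below all floxed values. Rora passed as lower in 1 of 16 other settings, voom on the recovered reads (log2 difference -0.29). The Rora value sums all exons and so does not check the deletion. RNA of the shared type 1 lymphocyte genes was abundant in both groups, though the sum was lower in cKO libraries. The 7 markers summed to 1003 to 1019 RPKM in cKO and 1126 to 1160 RPKM in floxed libraries. Of the 7, Ncr1 alone fell and 0 rose in limma. By unadjusted p under 0.05, 2 of these 7 were lower and 1 higher, and with voom 1 and 0.

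RNA of 5 Ly49 genes rose in the cKO libraries: the inhibitory Klra9 and Klra3, the activating Klra8 and Klra4, and Klra10. Klra7 and Klra5 were higher by a margin that did not pass, Klra6 and Klra1 lay close to 0, and Klra17 was barely detected. Klra9 moved most, to 2.34 times its floxed level, and the other risers reached 1.55 to 1.65 times. Of the 10 genes, 9 passed the filter of at least 1 RPKM in 3 libraries and were tested. The count of 5 higher among these 9 stood beside 0.652% of all tested genes, and 0 of 9 fell in limma, beside 0.668% (1.32% in either direction). By unadjusted p under 0.05, 7 members were higher and 0 lower, beside 706 higher and 1095 lower of all 12731 tested genes. Voom, run on the recovered reads, gave 6 higher (1.78% of all genes) and 0 lower (2.41%). In 6 members all cKO values lay above all floxed values (7.61% of all tested genes), and in 0 members all lay below (12.7%). The difference was above 0 in 7 of 9 members and in 42.7% of all tested genes, and the median was 0.60 over the members and -0.03 over all.

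**Figure D1:**
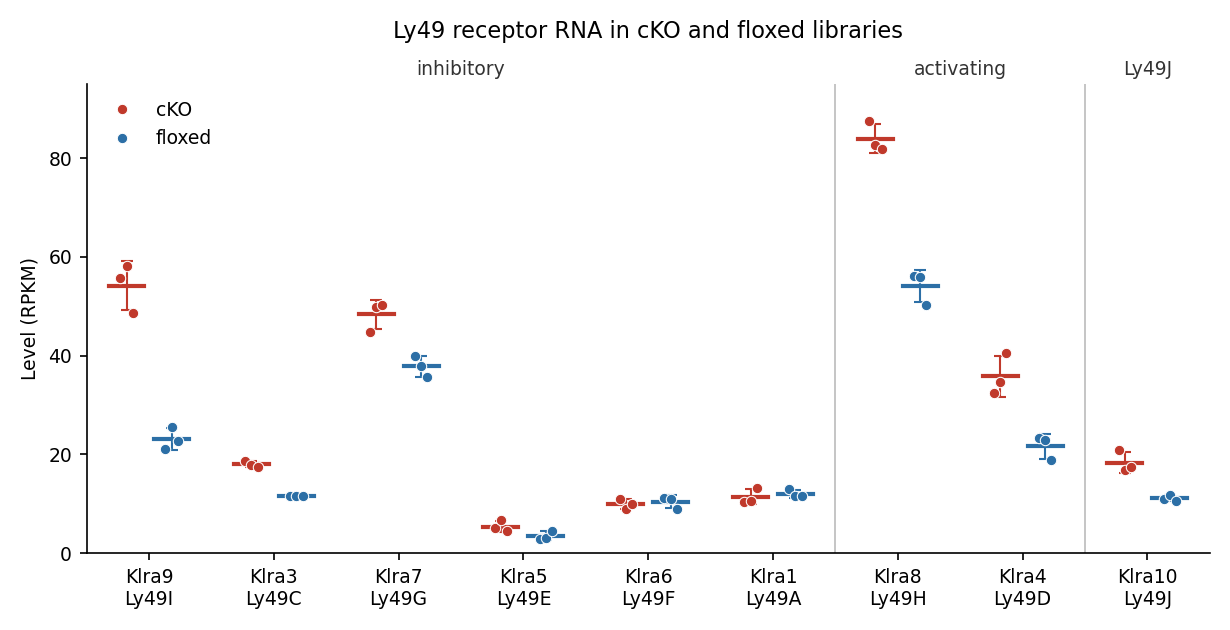
Levels in RPKM of the 9 tested Ly49 genes, 1 point per library, with cKO left of floxed for each gene, horizontal bars at the mean and error bars of 1 SD (n = 3 each). The cKO points stand clear above the floxed points for Klra9, Klra3, Klra7, Klra8, Klra4 and Klra10, and the groups overlap for Klra5, Klra6 and Klra1.

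Among the inhibitory receptors, Klra9 (chromosome 6, 130178675 to 130193112) encodes Ly49I. It was at 55.7, 58.1 and 48.6 RPKM in cKO libraries, against 21.1, 25.5 and 22.8 RPKM in floxed libraries. The lowest cKO value was above the highest floxed value by a wide gap. Means were 54.1 ± 4.98 RPKM in cKO and 23.1 ± 2.19 RPKM in floxed libraries (SD, n = 3 each), a log2 difference of 1.19 (SE 0.09) with limma's adjusted p = 0.00358. It ranked 24th by difference among all tested genes.

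Klra3 (130323289 to 130337574) encodes Ly49C, which like Ly49I binds the class I molecule H-2Kb. Its values were 18.8, 17.8 and 17.5 RPKM in cKO libraries, against 11.5 RPKM in each floxed library. The 3 floxed values agreed to within an SD of 0.00543 RPKM, against 0.656 RPKM in the cKO group, and the groups did not overlap. The floxed values rested on only 310, 288 and 309 reads, so agreement this close does not measure precision. The log2 difference was 0.60 (SE 0.05, adjusted p = 0.00563).

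Klra7 (130218605 to 130233322) encodes Ly49G, a receptor for H-2Dd. It was at 44.9, 49.8 and 50.3 RPKM in cKO libraries, against 40.0, 37.9 and 35.7 RPKM in floxed libraries. The groups did not overlap, yet the difference of 0.34 (95% confidence interval 0.19 to 0.50) did not pass in limma (adjusted p = 0.0750). It passed with voom, with the table's medians centred, and with only genes of at least 5 RPKM tested.

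Klra5 (129898996 to 129917650) encodes Ly49E, a receptor known from fetal NK cells and from ILC1s of adult mice. It was at 5.04, 6.64 and 4.51 RPKM in cKO libraries, against 2.93, 3.05 and 4.53 RPKM in floxed libraries. The third floxed library lay above the lowest cKO library, so the groups overlapped. Only 139 to 196 reads in cKO and 86 to 137 reads in floxed libraries supported it. The difference of 0.51 had an interval of 0.08 to 0.94 and did not pass (adjusted p = 0.283).

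Klra6 (130013033 to 130026954) encodes Ly49F. It was at 10.98, 8.998 and 9.99 RPKM in cKO libraries, against 11.2, 11.03 and 8.86 RPKM in floxed libraries. The groups interleaved, with a difference of -0.05 (interval -0.31 to 0.22, adjusted p = 0.897). Its block near the start matched that of Klra9 at 60 of 63 bases.

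Klra1 (130363917 to 130386874) encodes Ly49A, a further receptor for H-2Dd, and lies at the far end of the row. It was at 10.5, 10.6 and 13.2 RPKM in cKO libraries, against 12.95, 11.5 and 11.6 RPKM in floxed libraries. The third cKO library was the highest of all 6 and the other cKO libraries the lowest. The difference was -0.07 (interval -0.32 to 0.17, adjusted p = 0.813).

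Klra17 (129831154 to 129876672) encodes Ly49Q, known from plasmacytoid dendritic cells. It held 0, 2 and 8 reads in cKO libraries, against 1, 4 and 0 reads in floxed libraries, and was not tested. Siglech, a defining gene of plasmacytoid dendritic cells, was likewise near 0, at 0.0638 RPKM in cKO and 0.0794 RPKM in floxed libraries on average.

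Both activating receptors rose. Klra8 (130115226 to 130129898) encodes Ly49H, which recognises a cell surface protein of mouse cytomegalovirus, and was the most abundant of the 10 genes in every library. It was at 87.4, 82.6 and 81.9 RPKM in cKO libraries, against 56.1, 55.9 and 50.3 RPKM in floxed libraries. The groups were far apart, with a log2 difference of 0.63 (SE 0.06, adjusted p = 0.00589).

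Klra4 (130043731 to 130067271) encodes Ly49D, an activating receptor for H-2Dd. It was at 32.4, 34.6 and 40.4 RPKM in cKO libraries, against 23.3, 22.9 and 18.8 RPKM in floxed libraries. The groups did not overlap, but both spread widely, and the difference of 0.70 (SE 0.11) passed narrowly (adjusted p = 0.0415). Leave-one-out refits ended this call in 6 of 6 cases, as did fits with no filter on low values, no variance trend or a replicate term.

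Klra10 (130269194 to 130281928) encodes Ly49J and was placed in neither class. It was at 20.8, 16.8 and 17.5 RPKM in cKO libraries, against 10.97, 11.8 and 10.6 RPKM in floxed libraries. The groups did not overlap, and the difference of 0.67 (SE 0.09) passed (adjusted p = 0.0245). The same 9 settings as for Klra4 ended the call.

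**Figure D2:**
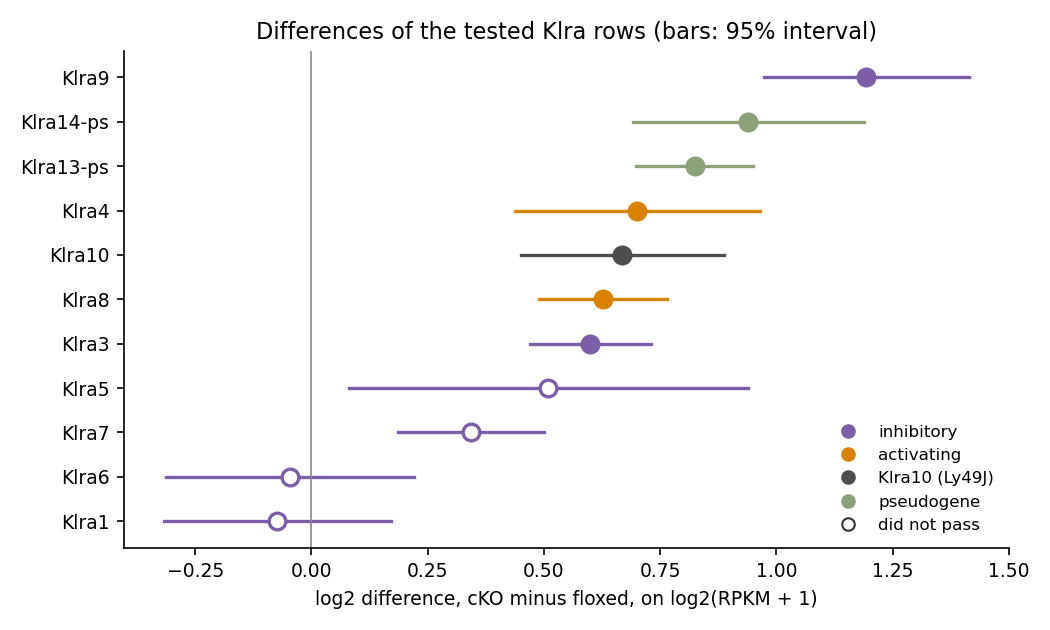
Log2 difference (cKO minus floxed, on log2(RPKM + 1)) of the 9 tested members and 2 pseudogenes, with 95% confidence intervals as lines, filled points where limma's adjusted p was under 0.05 and colours for the receptor class. Klra9 stands at 1.19, the other passing members lie between 0.60 and 0.70, and Klra6 and Klra1 straddle 0.

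Per unit of gene length, the order of mean levels in cKO libraries was Klra8, Klra9, Klra7, Klra4, Klra10, Klra3, Klra1, Klra6, Klra5 and Klra17. In that order, Klra9 and Klra7 overlapped in range, as did Klra10 and Klra3, and Klra1 and Klra6. In floxed libraries the order was Klra8, Klra7, Klra9, Klra4, Klra1, Klra3, Klra10, Klra6, Klra5 and Klra17. There Klra9 and Klra4 overlapped, and the neighbours from Klra1 to Klra6 lay between 8.86 and 12.95 RPKM with overlapping ranges.

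The summed reads of the 10 genes were 349, 352 and 349.8 RPM (reads scaled to library depth) in cKO libraries, against 235, 236 and 217 RPM in floxed libraries. The third floxed library was the lowest, and the 3 cKO sums lay within 3 RPM of one another although single receptors varied more. The sum was thus 1.53 times higher in cKO libraries. The inhibitory genes summed to 192 ± 5.02 RPM in cKO and 129.5 ± 3.64 RPM in floxed libraries, and the activating genes to 143.5 ± 3.23 RPM in cKO and 90.7 ± 6.96 RPM in floxed libraries (SD, n = 3 each). Ratios were 1.48 for inhibitory and 1.58 for activating genes. These sums over chosen genes are descriptions and were not tested. Of the gain in the sum, 32.8% came from Klra9, 29.1% from Klra8, 14.6% from Klra4 and 10.95% from Klra7. Without Klra9, chosen after its value was seen, the inhibitory log2 ratio was 0.29, against 0.57 with it.

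The mix of receptors shifted within a nearly steady balance of classes. Activating genes held 40.97 ± 1.03% of the summed reads in cKO and 39.5 ± 1.19% in floxed libraries, and inhibitory genes 54.7 ± 1.24% in cKO and 56.5 ± 1.15% in floxed libraries. Klra9 held 20.4, 21.1 and 17.8% in cKO libraries, against 11.5, 13.8 and 13.4% in floxed libraries. Klra1 held 5.28, 5.32 and 6.66% in cKO libraries, against 9.70, 8.61 and 9.45% in floxed libraries. Klra6 and Klra7 held smaller shares in every cKO library than in any floxed library, at 3.18 ± 0.326% and 17.5 ± 1.06% in cKO and 5.03 ± 0.410% and 20.9 ± 0.594% in floxed libraries. These are shares of a larger sum in cKO libraries. Klra7 itself averaged 61.2 RPM in cKO and 47.9 RPM in floxed libraries, Klra6 11.1 and 11.6 RPM, and Klra1 20.2 and 21.2 RPM. The share of Klra8 overlapped between the groups (28.2 ± 1.07% in cKO and 27.8 ± 0.377% in floxed libraries).

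**Figure D3:**
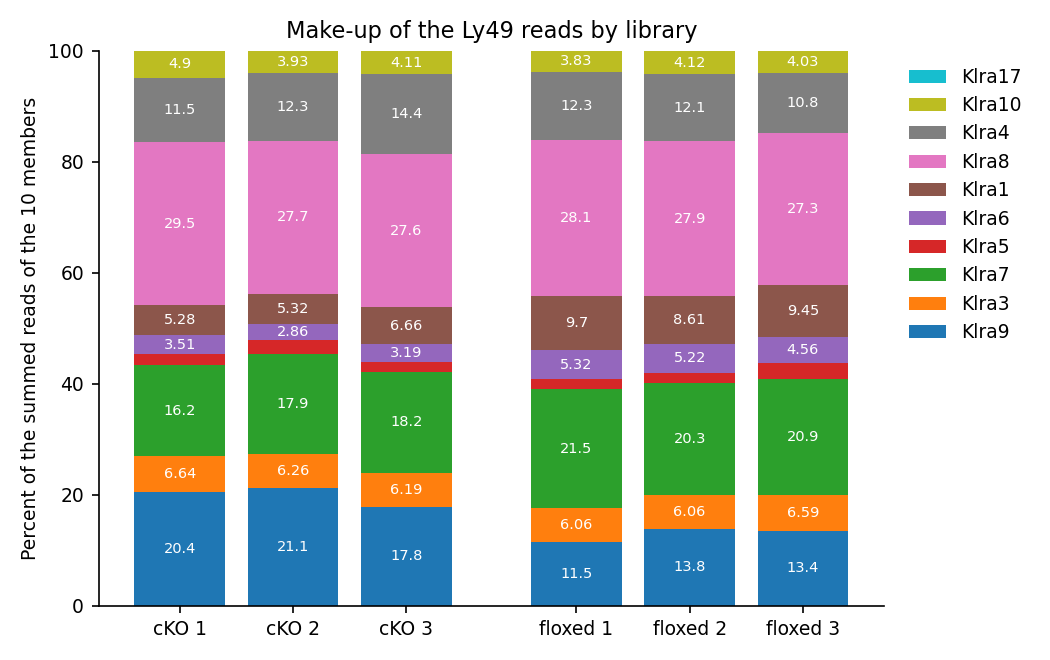
Percent of the summed reads of the 10 Ly49 genes taken by each gene in each library, cKO libraries on the left and floxed on the right, with values written in the larger segments. The Klra9 segment at the base is 17.8 to 21.1% in cKO libraries and 11.5 to 13.8% in floxed libraries, while that of Klra8 stays near 28%.

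Reads of these paralogs may be shared or lost in counting, and how the authors treated multiply mapped reads is not known here. As a measure of this, transcripts of GENCODE M21 were cut into all stretches of 50 bases. The share also found in another Klra gene was 39.8% for Klra10, 33.1% for Klra8, 31.5% for Klra9, 20.7% for Klra3 and 12.3% for Klra7. It was 4.35% for Klra4, 2.98% for Klra1, 2.62% for Klra6, 0.656% for Klra5 and 0% for Klra17. At 150 bases the share was 6.03% for Klra8, all with the pseudogene Klra14-ps, and 0% for the other 9 members. The part of shared reads in the differences was not tested. Adding close copies together gave 1.65 times more reads for Klra8 with Klra14-ps, 2.01 times for Klra3, Klra9 and Klra10 together, and 1.58 times for Klra7 with Klra13-ps, in cKO over floxed libraries.

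The transcribed pseudogenes between the receptor genes rose as well. Klra13-ps (130290878 to 130306428), between Klra10 and Klra3, was at 127.0, 114 and 126 RPKM in cKO libraries, against 68.5, 70.2 and 67.1 RPKM in floxed libraries. This was more RNA per length than any of the 10 receptor genes in the same library, and the groups lay far apart (log2 difference 0.82, adjusted p = 0.00165). Klra14-ps (130148799 to 130162569), between Klra8 and Klra9, was at 36.1, 33.4 and 31.7 RPKM in cKO libraries, against 20.03, 16.1 and 15.4 RPKM in floxed libraries. It rose too (0.94, adjusted p = 0.0116). Without cKO replicate 1, cKO replicate 2 or floxed replicate 2 the difference was 0.89, 0.95 or 0.90, with limma adjusted p of 0.0574, 0.0621 or 0.0550, so that it no longer passed.

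Under the other settings run, Klra8 and Klra9 passed in all 16, Klra3 in 15 and Klra4 and Klra10 in 7. Leaving out any single library left the same 3 calls, Klra3, Klra8 and Klra9. The labels do not say whether the replicate numbers pair the libraries, and a term for them left Klra8 and Klra9. No refit turned the direction of a passing member.

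**Figure D4:**
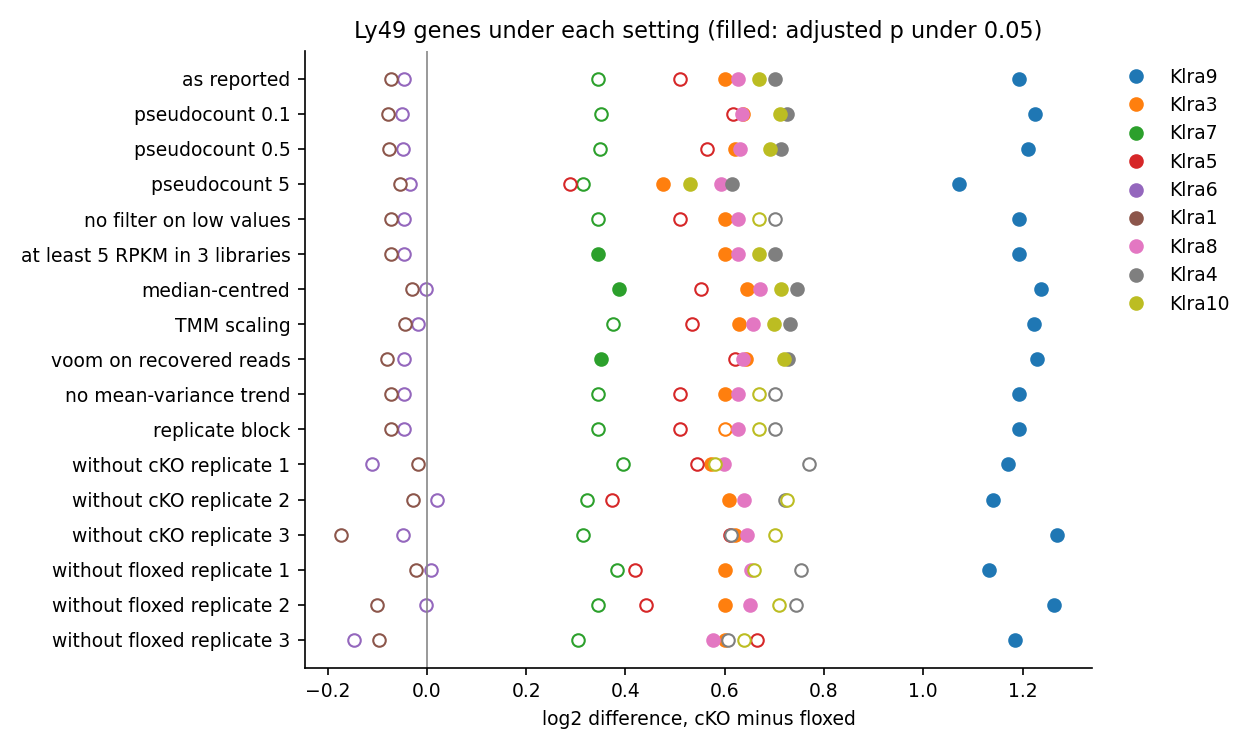
Log2 difference (cKO minus floxed) of each tested Ly49 gene, 1 colour per gene, as reported and under the 16 other settings down the page, with filled points where the adjusted p was under 0.05. Klra9 lies between 1.07 and 1.27 throughout, and Klra6 and Klra1 stay near 0 with open points.

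Within 1 Mb on each side of the Ly49 row, 30 other genes were tested, of which 1 rose and 1 fell (median 0.13, against -0.03 over all tested genes). By unadjusted p under 0.05, 6 were higher and 6 lower, beside 706 and 1095 of all 12731 tested genes. With voom 3 were higher and 2 lower. The shares of all genes for limma and voom calls are those given above. Klrc1, which encodes the inhibitory receptor NKG2A, fell, with 150.4 ± 9.46 RPKM in cKO and 199 ± 4.82 RPKM in floxed libraries (log2 difference -0.40, adjusted p = 0.0239). The early activation marker gene Cd69 rose, with 32.8 ± 0.437 RPKM in cKO and 21.4 ± 1.11 RPKM in floxed libraries (0.60, adjusted p = 0.00563). The kinase gene Styk1 (0.49, adjusted p = 0.0658) and Klre1, which encodes an NK lectin-like receptor (0.28, adjusted p = 0.0712), did not pass. Styk1 passed as higher in 3 and Klre1 in 4 of 16 other settings, voom among them for both. Klrc1 no longer passed in 9 of 16 other settings, each leave-one-out refit among them.

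The signalling chains below the receptors were read from lists of their genes. Of 14 tested genes of the DAP12 and ITAM arm, 0 rose and 0 fell in limma (median -0.04), while unadjusted p-values under 0.05 numbered 3 on each side and voom gave 1 higher and 0 lower. Tyrobp, which encodes DAP12 itself, was at 140.3 ± 3.75 RPKM in cKO and 121 ± 4.51 RPKM in floxed libraries (0.21, adjusted p = 0.101). Of 10 phosphatases and proximal kinases of the ITIM arm, Fyn, a Src family kinase gene, rose (181 ± 4.38 RPKM in cKO and 141 ± 3.10 RPKM in floxed libraries, 0.36, adjusted p = 0.0106) and 0 fell in limma (median -0.02). By unadjusted p under 0.05, 2 of these 10 genes, Fyn and Lck, were higher and 0 lower, and with voom 1 and 0. The call of Fyn was lost in 6 of 16 other settings. Ptpn6, which encodes SHP-1, was at 146 RPKM in cKO and 153 RPKM in floxed libraries on average (-0.07, adjusted p = 0.544), and the kinase gene Lck had a difference of 0.10 (adjusted p = 0.273).

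Among 6 genes of MHC class I and its loading, which supply the ligands, 0 rose and 0 fell in limma (median 0.02), while 1 was higher and 0 lower by unadjusted p under 0.05, and likewise with voom. H2-K1 had a difference of 0.15 (adjusted p = 0.189) and H2-D1 one of 0.08 (adjusted p = 0.437). Of 18 transcription factor genes tied to Ly49 expression or NK maturation, 2 rose and 0 fell in limma (median 0.06), while by unadjusted p under 0.05 there were 3 higher and 2 lower, and with voom 2 and 1. They were Eomes, a T-box factor gene (65.8 ± 4.31 RPKM in cKO and 42.4 ± 2.44 RPKM in floxed libraries, 0.62, adjusted p = 0.0106), and Nfil3, a factor gene of NK development (0.37, adjusted p = 0.0231). Tcf7, whose product TCF-1 is known to bind Ly49 promoters, did not pass (0.09, adjusted p = 0.397), nor did Id2 (-0.29, adjusted p = 0.0917). Nfil3 lost its call when any library was left out, and Eomes without cKO replicate 1, cKO replicate 3 or floxed replicate 3.

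**Figure D5:**
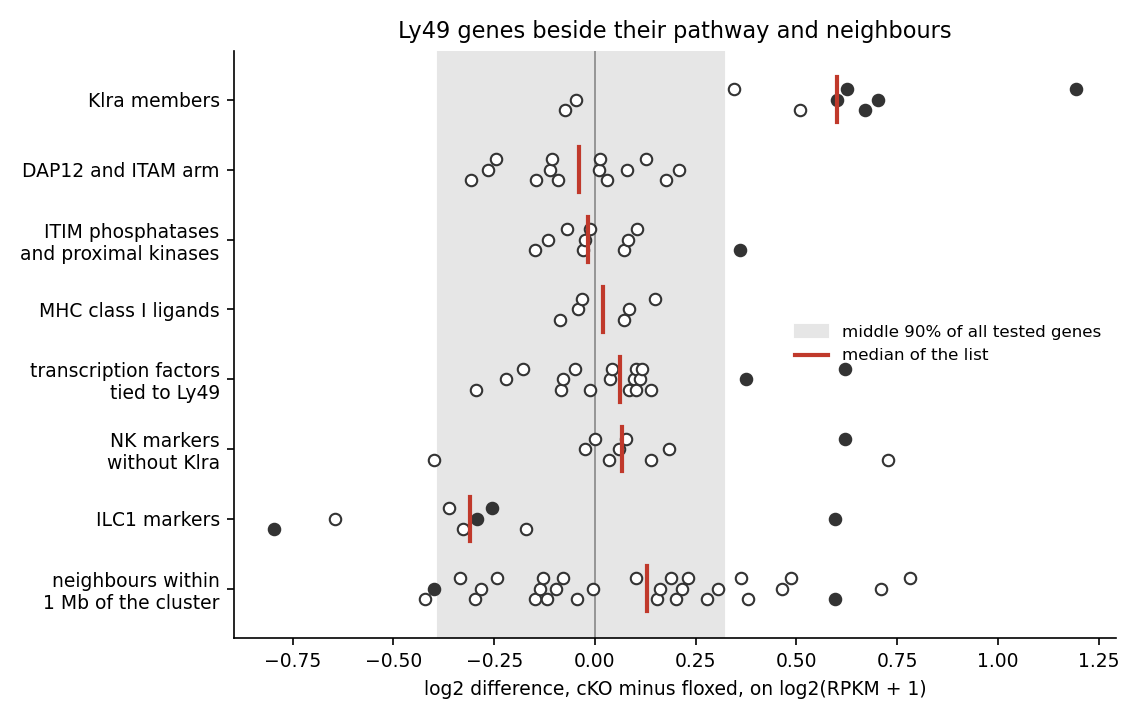
Log2 difference (cKO minus floxed, on log2(RPKM + 1)) of the tested genes of each list, 1 point per gene, filled where limma's adjusted p was under 0.05, with the list median as a red line and the middle 90% of all tested genes in grey. The median is 0.60 for the Ly49 genes, -0.04 to 0.07 for the signalling, MHC class I, transcription factor and NK marker lists, 0.13 for the neighbours and -0.31 for the ILC1 markers.

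Other markers of the cells differed beside the Ly49 genes, and those named here were picked after their values were seen. The 10 conventional NK markers without Klra genes summed to 327 to 345 RPKM in cKO and 278 to 292 RPKM in floxed libraries, and of the 10, Eomes alone rose and 0 fell in limma. By unadjusted p under 0.05, 3 of these markers were higher and 0 lower, and with voom 2 and 0. The perforin gene Prf1 did not pass (0.06, adjusted p = 0.647). The 8 ILC1 markers summed to 442 to 444 RPKM in cKO and 511 to 533 RPKM in floxed libraries, where Cxcr6 (-0.80), Il18r1 (-0.29) and Il7r (-0.26) fell and Cd69 rose. By unadjusted p under 0.05, 6 of these 8 markers were lower and 1 higher, and with voom 5 and 1. Ncr1, which encodes NKp46 and belongs to the shared type 1 markers above, was also lower in cKO libraries. It was at 246 ± 12.5 RPKM in cKO and 372 ± 10.8 RPKM in floxed libraries (-0.60, adjusted p = 0.00446). Cxcr6, Il18r1 and Il7r each lost the call in 8 or 9 of 16 other settings.

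T cell markers summed to 60.9 to 65.7 RPKM in cKO and 68.5 to 71.3 RPKM in floxed libraries, and B cell markers to 7.83 to 8.90 RPKM in cKO and 13.4 to 13.6 RPKM in floxed libraries. Of 6 tested T cell markers, the CD3 chain gene Cd3e (-0.69) alone fell in limma, while the more abundant Cd4 (-0.004) and Cd3g (-0.01) differed little. By unadjusted p under 0.05, 3 of these 6 were lower and 0 higher, and with voom 2 and 0. Of 2 tested B cell markers, the B cell receptor regulator gene Cd22 (-0.55) fell in limma. By unadjusted p under 0.05, 2 B cell markers were lower and 0 higher, and with voom 1 and 0. Dendritic cell markers summed to 126.6 to 128 RPKM in cKO and 151 to 159 RPKM in floxed libraries, where the MHC class II genes H2-Ab1 (-0.62) and Cd74 (-0.75) fell. The other tested markers of this list, Itgax (0.23) and Zbtb46 (0.11), were higher in cKO libraries but did not pass. By unadjusted p under 0.05, 1 of the 4 tested dendritic cell markers was higher and 2 lower, and likewise with voom. Macrophage and monocyte markers summed to 29.6 to 32.5 RPKM in cKO and 35.6 to 39.4 RPKM in floxed libraries, with 0 of 4 tested genes called in limma, 2 lower by unadjusted p under 0.05 and 1 lower with voom. Each of these 4 calls was lost with some libraries left out: Cd3e with any of the 6, Cd22 with any but cKO replicate 3, Cd74 with any but cKO replicate 3, and H2-Ab1 without cKO replicate 2, cKO replicate 3 or floxed replicate 3. Plasmacytoid dendritic cell markers summed to 47.9 to 52.7 RPKM in cKO and 51.6 to 58.8 RPKM in floxed libraries, most of it from Bst2 and Irf8. The cKO libraries further held less Xist (9.43 ± 0.394 RPKM in cKO and 31.9 ± 3.16 RPKM in floxed libraries) and more of the Y-linked Ddx3y (20.8 ± 0.438 RPKM in cKO and 10.4 ± 0.498 RPKM in floxed libraries). They also held more of the immediate-early gene Fos (346 ± 13.7 RPKM in cKO and 168 ± 0.819 RPKM in floxed libraries). The heat shock gene Hspa1b, first of all tested genes by p, was at 116 ± 6.07 RPKM in cKO and 34.3 ± 1.16 RPKM in floxed libraries (1.73, adjusted p = 0.000185). The part of any of these in the Ly49 differences was not tested.

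By a fixed measure of likeness, the root mean square distance between centred log2 values over the 6 libraries, the gene nearest to the summed Ly49 reads was Kifc3 (distance 0.0292). It was at 35.3, 35.9 and 35.6 RPKM in cKO libraries, against 22.5, 23.2 and 20.8 RPKM in floxed libraries. Ddit3, Dnajb4, Gzma and Ier5 followed, at distances of 0.0519 to 0.0579, with log2 differences of 0.52 to 0.66. All 5 were also passing genes, and the measure mostly follows the size of the difference between the groups.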

How the data were processed

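Libraries were made from TRIzol-extracted RNA with a stranded mRNA kit, per the labels' protocols. The authors deposited RPKM per gene with gene lengths. STAR 2.5.3a, Subread 1.5.1 with featureCounts, edgeR 3.12.1 and mm10 appear in the submitters' processing notes, without roles. Not given in the sources used here: annotation version, strand setting, read length, and handling of multiply mapped or duplicate reads. RPKM times length fell on whole multiples of a step per library for 100% of values (tolerance 0.001 reads), which gave back reads and depth. All value columns were used.

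Genes with at least 1 RPKM in 3 libraries were tested two-sided with limma 3.58.1 (R 4.3.3, lmFit and eBayes with trend) on log2(RPKM + 1), all 6 libraries, no covariates. The fit was tested on simulated data. Alternatives were pseudocounts of 0.1, 0.5 and 5, other filters, median and TMM scaling, voom on recovered reads, no trend, a replicate block and each library left out. With only 3 libraries a group, no exact test of a single gene could reach p = 0.05. All 10 members are named, and from each list at most 4 passing genes by p and 2 others by level. Members and lists were chosen with earlier results of these data known. Motifs, summed copies and the shared block were chosen after the values were seen.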

Additional observations from a re-analysis of the deposited data

How the results depend on the processing

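In all, 83 genes of the table rose and 85 fell. These counts were 124 and 71 with medians centred, 107 and 73 with TMM scaling, 44 and 36 without a filter on low values, 226 and 307 with voom, and 39 and 35 without the variance trend. They were 37 and 23 with the replicate block, and 33 to 50 and 27 to 39 with 1 library left out. Of the Ly49 genes, 5 rose in the fit reported, 3 without a filter, 3 without the trend, 2 with the replicate block, 3 with any 1 library left out, and 6 with voom, medians centred or the 5 RPKM filter. The cause of the losses was not tested, except that fewer libraries or degrees of freedom enter the block and leave-one-out fits. Deviations of same-numbered cKO and floxed libraries correlated at -0.03, 0.01 and 0.04, and those of different-numbered libraries at -0.10 to 0.09. No sign of pairing by number was thus seen, but so few libraries cannot exclude a shared day or batch. Klra6 changed sign without cKO replicate 2 (0.0198) and without floxed replicate 1 (0.00907), with a leave-one-out range of -0.15 to 0.02. The log2 ratio of the summed reads was 0.61, against 0.69 over all 14 Klra rows and 0.49 without Klra9. For inhibitory genes it was 0.57, against 0.68 without Klra7 and 0.29 without Klra9. Of 143 refitted member values, 119 kept direction and side of the threshold, 19 fell below it, 3 rose past it and 2 changed sign. Klra17, with at most 8 reads in a library, was too low for the test at this depth.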

Other observations

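Both remaining Klra rows were too low to test. Klra11-ps, a pseudogene between Klra4 and Klra8, held 9, 41 and 0 reads in cKO libraries, against 7, 14 and 10 reads in floxed libraries, so that a single cKO library held most of its reads. Klra2, which encodes Ly49B, a receptor of myeloid cells, and lies outside the main row, held 6, 10 and 11 reads in cKO libraries, against 12, 9 and 4 reads in floxed libraries.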
